A study of Mus musculus with 4 samples.

Results

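The 10 genes described here, Krt4, Krt5, Krt6a, Krt13, Krt14, Krt15, Trp63, Dsg3, Dsc3 and Sprr1a, are genes of stratified squamous epithelium, the layered lining found in the oesophagus, the mouth and the skin. They were chosen by symbol as a reading of squamous epithelium lying next to the thyroid in dissected tissue, and all 10 were found among the 16218 genes of the count table. The data were RNA-seq counts from thyroids of mice of the NOD.H-2h4 strain, which develops autoimmune thyroiditis, after antibody treatment 3 times a week for 2 weeks. The treated mice received a monoclonal antibody against PD-L1 (anti-PD-L1, 2 libraries) and their controls an isotype control IgG (IgG, 2 libraries), and all carried the same strain background. The labels give neither sex nor age. The titles name a mouse for each library, with no statement on pooling or on separate cages, so the p-values below measure only the spread between these 4 samples. A field named batch held a different clone name in each library (10F.9G2 and 10F.9G3 for anti-PD-L1, LTF2 and LTF3 for IgG), so a batch and a library cannot be told apart. The names within a group differ only in their last digit, so they may number the samples and not name different clones.

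Stratified epithelia are built from a basal layer that divides and upper layers that mature. Keratins form filaments as pairs of a type II and a type I chain: KRT5 with KRT14 in basal cells, KRT4 with KRT13 in the upper layers of internal linings such as the oesophagus, and KRT6A as an inducible type II chain of stressed or fast-renewing epithelium. KRT15 is a further basal type I chain, and p63, the product of Trp63, is the transcription factor that maintains basal cells. Desmoglein 3 (Dsg3) and desmocollin 3 (Dsc3) are desmosomal cadherins that join keratinocytes in the lower layers, and SPRR1A is a precursor of the cornified envelope that forms as the cells mature. In mice, basal cells of the airway, myoepithelial cells of glands and the medullary epithelium of the thymus also express several of the basal genes.

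Total counts ranged over the libraries from 75591923 to 79663374.5. The thyroid was recognisable in every library by Tg, the thyroglobulin gene, at 4.34% and 16.9% of all counts in anti-PD-L1 replicates 1 and 2 and at 15.3% and 14.6% in IgG replicates 1 and 2. Anti-PD-L1 replicate 1 also stood apart in Xist, the RNA of the inactive X chromosome, with 1.36 CPM (counts scaled to 1e6 counts of the library) where the remaining libraries had 70.6 to 73.0 CPM. The Y-linked gene Ddx3y had 60.8 CPM in that library and 0.351 to 0.824 CPM in the rest. By Xist and Ddx3y, anti-PD-L1 replicate 1 reads as male tissue and the remaining libraries as female, so sex differs inside the anti-PD-L1 group. The part of these differences in the results below was not tested. Values without this library are given with the other libraries left out in turn.

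Summed over the members, the squamous genes were abundant in 3 of the 4 dissections and scarce in anti-PD-L1 replicate 2. Together they took 0.570% of all counts in anti-PD-L1 replicate 1 (95% Wilson interval 0.569% to 0.572%) and 0.0116% in anti-PD-L1 replicate 2 (0.0114% to 0.0118%). In the IgG group they took 1.31% in replicate 1 (1.30% to 1.31%) and 0.340% in replicate 2 (0.339% to 0.341%). These intervals cover counting error only. Summed over the 10 genes, levels on the CPM scale with TMM (trimmed mean of M-values) library factors, used from here on, were 5868 and 111 CPM in anti-PD-L1, against 13026 and 3459 CPM in the IgG libraries. All 10 genes were lowest in anti-PD-L1 replicate 2 and all 10 were highest in IgG replicate 1, an order of extremes found in 8.33% of all genes tested. In dissected tissue, fewer squamous cells and less of each RNA per cell cannot be told apart.

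**Figure D1:**
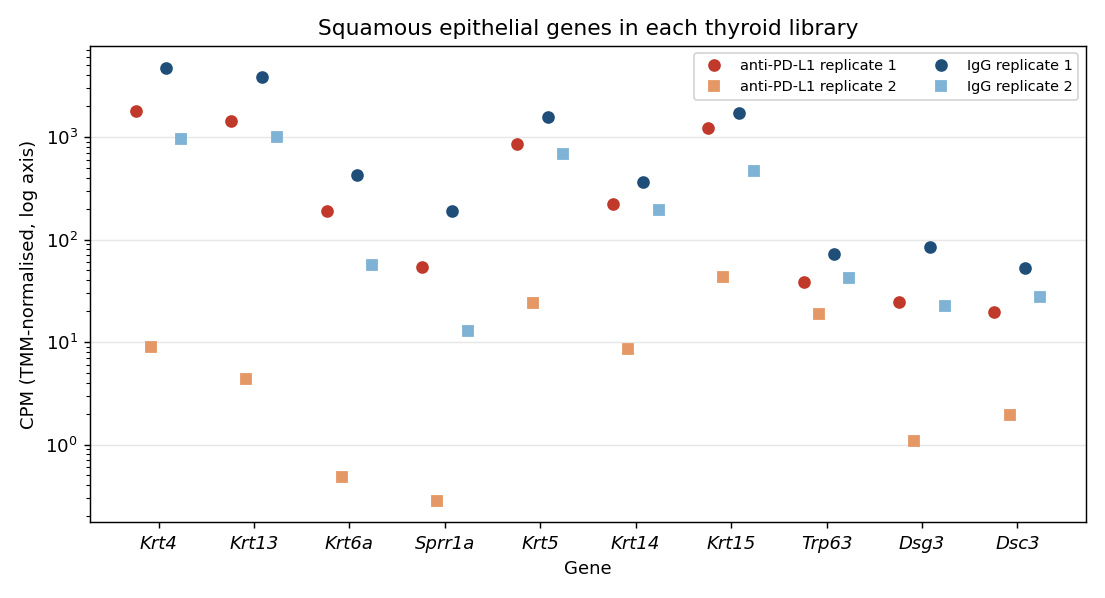
TMM-normalised CPM of the 10 squamous genes on a log axis, with 1 point per library (circles replicate 1, squares replicate 2). Anti-PD-L1 replicate 2 is the lowest point for every gene and IgG replicate 1 the highest, while anti-PD-L1 replicate 1 lies among the IgG libraries for 8 of 10 genes.

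Since the members shared their lowest and highest library, their promoter sequences are shown for comparison. RefSeq windows on GRCm38.p6, from 250 bases before to 50 after a gene's start, were found for 4 of the 10 members, and those that begin within 14 bases of a GENCODE coding transcript start are printed for 1 upper-layer keratin, 1 basal keratin and the envelope precursor. Capitals mark TATAAA, the TATA box, and TGANTCA, the AP-1 element, each searched on both strands, and no match of one overlaps a match of the other. The windows are Krt13 at chr11:100121517-100121816 (minus strand), Krt5 at chr15:101712856-101713155 (minus strand) and Sprr1a at chr3:92485832-92486131 (minus strand), each 5′ to 3′.
Krt13: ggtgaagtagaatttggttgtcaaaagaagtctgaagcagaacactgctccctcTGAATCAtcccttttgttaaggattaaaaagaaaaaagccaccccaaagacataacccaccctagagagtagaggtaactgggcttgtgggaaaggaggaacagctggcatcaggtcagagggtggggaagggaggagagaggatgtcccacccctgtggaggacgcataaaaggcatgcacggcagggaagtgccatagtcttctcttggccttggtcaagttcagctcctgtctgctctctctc
Krt5: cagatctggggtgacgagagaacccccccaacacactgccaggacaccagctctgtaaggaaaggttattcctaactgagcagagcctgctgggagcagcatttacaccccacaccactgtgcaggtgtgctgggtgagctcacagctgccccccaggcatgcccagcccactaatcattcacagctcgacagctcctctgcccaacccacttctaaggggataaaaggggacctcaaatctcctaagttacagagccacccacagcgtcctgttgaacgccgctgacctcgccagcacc
Sprr1a: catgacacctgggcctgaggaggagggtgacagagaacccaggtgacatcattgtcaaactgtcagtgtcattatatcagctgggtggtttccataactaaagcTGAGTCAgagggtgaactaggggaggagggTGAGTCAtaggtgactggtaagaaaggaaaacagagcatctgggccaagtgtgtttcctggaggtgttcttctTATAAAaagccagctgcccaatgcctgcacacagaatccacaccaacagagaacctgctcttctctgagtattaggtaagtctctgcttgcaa
Sprr1a held 2 AP-1 matches, beginning 146 and 116 bases before the start site, and 1 TATA match beginning 43 bases before it. The printed Krt13 window held 1 AP-1 match, 196 bases before the start, and no TATA match, and the Krt5 window held neither. A further Krt13 window, 989 bases from the nearest coding transcript start and not printed, held 2 AP-1 matches and no TATA match. Only matches to these exact letters were marked, so close variants of either element were not counted. Of 32851 windows of the same length, 7.81% held an AP-1 match and 13.6% a TATA match. A match is a description of the letters only.

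The keratin pair of internal linings led the members, per kilobase, in every library except anti-PD-L1 replicate 2, where Krt15 led. Krt4 (type II, chromosome 15 from 101918535 to 101924735 of GRCm38, minus strand) had 1799.8 and 8.92 CPM in anti-PD-L1, against 4757 and 952 CPM in the IgG libraries. Its partner Krt13 (type I, chromosome 11 from 100117327 to 100121566, minus strand) had 1441 and 4.32 CPM in anti-PD-L1, against 3808 and 999 CPM in IgG. For both genes anti-PD-L1 replicate 1 lay between the IgG libraries, so the groups overlapped. Per kilobase of merged exon, a scale on which levels of different genes can be compared, Krt4 was the gene of rank 7 and Krt13 the gene of rank 8 in IgG replicate 1 among 15870 genes with a length, and in anti-PD-L1 replicate 2 they held ranks 7640 and 9954. The fitted log2 fold change, anti-PD-L1 over IgG, was −1.66 ± 2.16 for Krt4 and −1.73 ± 2.23 for Krt13 (SE, n = 2 per group), neither past the threshold (edgeR's quasi-likelihood test, Benjamini-Hochberg adjusted p = 0.9997 for each).

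Krt6a (chromosome 15 from 101689910 to 101694307, minus strand) had 189 and 0.481 CPM in anti-PD-L1, against 430.0 and 55.8 CPM in IgG. Sprr1a (chromosome 3 from 92483952 to 92485895, minus strand) had 54.2 and 0.284 CPM in anti-PD-L1, against 188 and 12.8 CPM in IgG. In anti-PD-L1 replicate 2 these levels rested on 39 counts for Krt6a (exact 95% Poisson interval 27.7 to 53.3) and 23 counts for Sprr1a (14.6 to 34.5), so both RNAs were detected there, at low precision. Sprr1a was also the member that varied most between the IgG libraries, by 14.8 times, and Krt6a followed with 7.70 times. Their log2 fold changes were −1.36 ± 2.31 for Krt6a and −1.88 ± 2.27 for Sprr1a (edgeR adjusted p = 0.9997 for each).

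Part of the Krt6a count is uncertain because its neighbour Krt6b, a keratin gene of the same inducible kind, shares stretches of its sequence. In GENCODE transcripts, 18.7% of the 150-base windows of Krt6a occurred unchanged in another gene, and for the other 9 members that share was 0. The longest run that the coding parts of Krt6a and Krt6b have in common is 280 bases, coding bases 34 to 313 of Krt6a (chr15:101693936-101694215, GRCm38, minus strand), and it is shown because a read lying inside it cannot be assigned to 1 of the genes by its letters. The run was found in no transcript of a further gene, and it is printed 5′ to 3′ with no part singled out.
Krt6a and Krt6b shared run: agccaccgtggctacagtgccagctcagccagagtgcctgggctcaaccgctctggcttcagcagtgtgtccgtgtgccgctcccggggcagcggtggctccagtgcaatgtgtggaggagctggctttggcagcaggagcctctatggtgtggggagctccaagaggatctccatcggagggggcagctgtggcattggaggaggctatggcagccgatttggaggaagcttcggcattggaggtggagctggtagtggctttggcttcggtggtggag
Krt6b itself had 28.6 and 0.666 CPM in anti-PD-L1, against 68.0 and 10.3 CPM in IgG, the same order of libraries as Krt6a. Annotated genes on the opposite strand overlap exons of Krt5 (Gm44323) and of Krt6a (Gm49428 and Gm44342), and since the strand setting of the counting was not given, their reads cannot be separated from the keratins.

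The basal keratins varied less than the upper-layer genes, though in the same order of extremes. Krt5 (chromosome 15 from 101707070 to 101712898, minus strand) had 858 and 23.96 CPM in anti-PD-L1, against 1571 and 686 CPM in IgG. Krt14 (chromosome 11 from 100203162 to 100207548, minus strand) had 221 and 8.54 CPM in anti-PD-L1, against 361 and 193 CPM in IgG. For both, anti-PD-L1 replicate 1 stood between the IgG libraries and close to IgG replicate 2 (1.25 times its level for Krt5 and 1.15 times for Krt14). Krt15 (chromosome 11 from 100131758 to 100135928, minus strand) had 1222 and 42.6 CPM in anti-PD-L1, against 1699.7 and 470.0 CPM in IgG. Log2 fold changes were −1.36 ± 1.57 for Krt5, −1.27 ± 1.43 for Krt14 and −0.78 ± 1.55 for Krt15 (edgeR adjusted p = 0.9997 for each).

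Trp63 (chromosome 16 from 25683763 to 25892102, plus strand) varied least of the 10 genes. It had 38.3 and 19.0 CPM in anti-PD-L1, against 72.6 and 41.7 CPM in IgG, so both anti-PD-L1 libraries lay below both IgG libraries. Its log2 fold change was −0.997 ± 0.457 (edgeR adjusted p = 0.9997, DESeq2 adjusted p = 0.543), which did not pass. Between IgG replicate 1 and anti-PD-L1 replicate 2 its level differed 3.83 times, while for the other 9 members that ratio ran from 27.3 for Dsc3 to 893 for Krt6a.

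The desmosomal cadherins were the least abundant members in IgG replicate 2 per kilobase, with Trp63. In that library Dsg3 held rank 8763, Dsc3 rank 6828 and Trp63 rank 6911 among 15870 genes. Dsg3 (chromosome 18 from 20510274 to 20547459, plus strand) had 24.8 and 1.09 CPM in anti-PD-L1, against 85.2 and 22.5 CPM in IgG, and anti-PD-L1 replicate 1 exceeded IgG replicate 2 by 1.10 times. Dsc3 (chromosome 18 from 19960930 to 20002351, minus strand) had 19.8 and 1.94 CPM in anti-PD-L1, against 53.0 and 27.4 CPM in IgG, with no overlap between groups. Log2 fold changes were −2.06 ± 1.51 for Dsg3, the lowest of the 10, and −1.89 ± 1.12 for Dsc3 (edgeR adjusted p = 0.9997 for each).

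**Figure D2:**
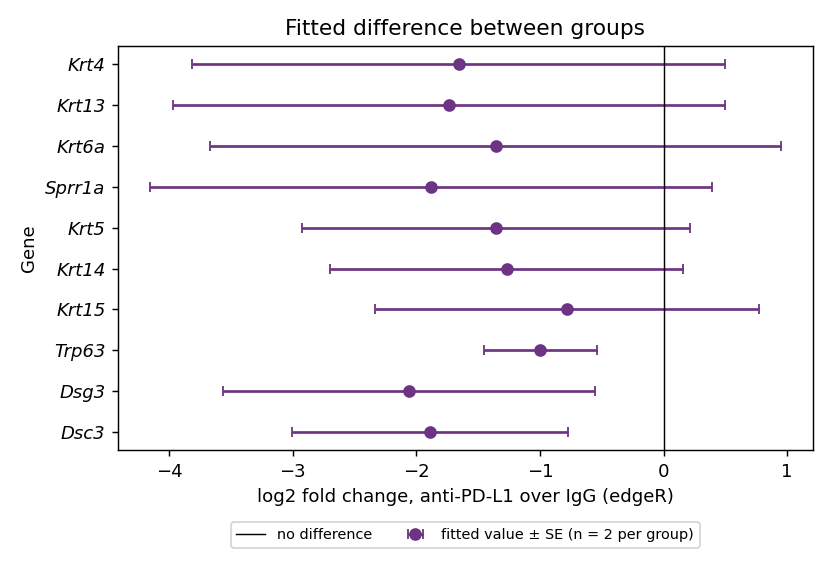
Fitted log2 fold change, anti-PD-L1 over IgG, of each squamous gene with its SE as a bar (edgeR, n = 2 libraries per group), beside a line at no difference. All 10 points lie below 0, from −2.06 for Dsg3 to −0.78 for Krt15, and the bars of 7 genes cross 0.

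Over the comparison as a whole, the squamous genes had lower fitted values in anti-PD-L1, and none passed the test. The median log2 fold change of the 10 was −1.51, beside 0.00021 over all 16217 genes tested, and it was −2.96 with limma voom and −2.94 with the replicate number as a block. edgeR called 0 of the 10, where it called 0% of all genes, and 0 of the 10 had an unadjusted p under 0.05, as 982 genes (6.06%) had. DESeq2 also called 0 of the 10, beside 3.26% of all genes (0.327% lower and 2.93% higher in anti-PD-L1), and limma voom 0 of the 10, beside 0%. Groups did not overlap for 2 of the 10, Trp63 and Dsc3, both lower in anti-PD-L1, beside 13.1% of all genes, and 0 of the 10 had non-overlapping groups with higher values, beside 16.5%. The 10 genes are not separate replicates, since all had the same lowest and the same highest library.

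For most of the genes the anti-PD-L1 libraries differed from each other more than the groups did. On the log2 CPM scale (prior count 2), replicate 1 of anti-PD-L1 exceeded its replicate 2 by 1.0145 for Trp63 and up to 8.54 for Krt6a, with a median over the 10 of 5.0004, beside a median absolute difference of 0.33 over all genes. Within IgG, replicate 1 exceeded replicate 2 by 0.80 for Trp63 and up to 3.88 for Sprr1a, with a median of 1.89, beside 0.16 over all genes. For 9 of the 10 genes the difference inside anti-PD-L1 was larger than that between the group means, the exception being Trp63 (1.0145 inside and −1.03 between groups). The difference inside IgG was larger than that between groups for 1 of the 10, Sprr1a. Both counts use the difference between group means of log2 CPM, not the fitted log2 fold change. Set against the size of the fitted values, the difference inside anti-PD-L1 was larger for Trp63 as well (−0.997). The difference inside IgG was then also larger for Krt4 (2.32 and −1.66), Krt6a (2.94 and −1.36), Krt13 (1.93 and −1.73) and Krt15 (1.85 and −0.78). Krt6a, Krt13, Krt4 and Sprr1a held ranks 5, 6, 8 and 9 among all genes for the size of the difference inside anti-PD-L1. The fitted biological coefficient of variation was 34.7% for Trp63 and reached 131% for Krt6a, beside a median of 24.4% over all genes.

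**Figure D3:**
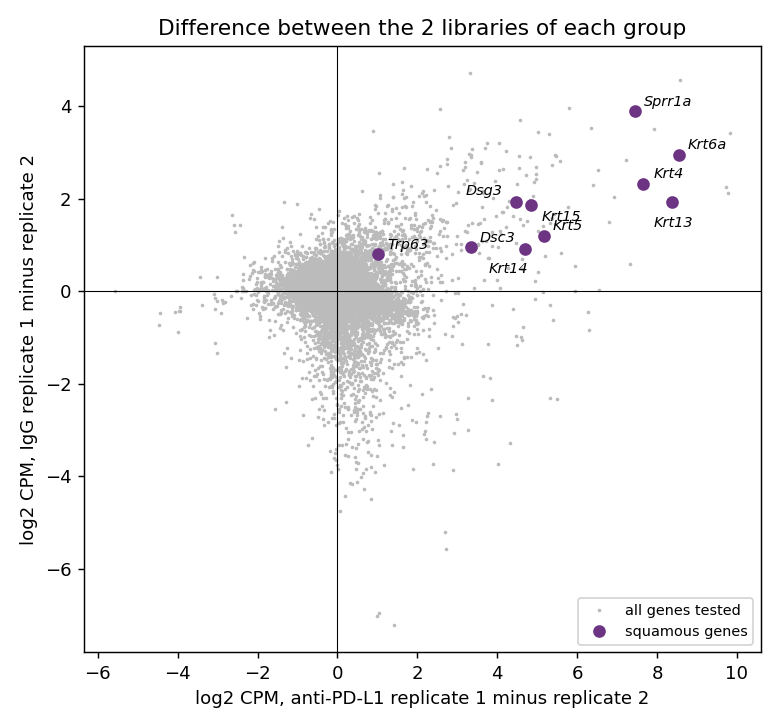
Difference in log2 CPM between the libraries of each group, anti-PD-L1 on the horizontal axis and IgG on the vertical axis, for all genes tested (grey) and the 10 squamous genes (purple). All 10 squamous genes have positive differences on both axes, with Krt6a farthest right at 8.54 and Trp63 nearest the bulk of genes at 1.0145.

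Single libraries decided the size of the group difference. Without anti-PD-L1 replicate 1, the library also set apart by Xist and Tg, the median log2 fold change of the 10 genes was −5.59, and DESeq2 then called all 10 lower, beside 4.04% of all genes (adjusted p from 1.46e-31 for Krt14 to 0.0186 for Krt15), while edgeR called 0 with the same 3 libraries. Without anti-PD-L1 replicate 2 the median was −0.63, without IgG replicate 1 it was −0.53 and without IgG replicate 2 it was −2.24. DESeq2 called 0 of the 10 in each of these, beside 2.19%, 0.185% and 0.148% of all genes lower in that order. With 1 library left in a group, that library is assumed to vary like the others. Krt15 had a log2 fold change above 0 without anti-PD-L1 replicate 2 (0.17 ± 0.94) and without IgG replicate 1 (0.40 ± 2.09), and Krt6a (0.74 ± 3.29) and Sprr1a (1.07 ± 3.04) did so without IgG replicate 1.

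The make-up of the keratin signal also differed between libraries. Krt4 and Krt13 together formed 56.0% and 14.1% of the summed level per kilobase of the 6 member keratins in anti-PD-L1 replicates 1 and 2, against 67.7% and 58.3% in IgG replicates 1 and 2. Krt5, Krt14 and Krt15 together formed 41.3% and 85.5% in anti-PD-L1, against 29.5% and 40.3% in IgG. In anti-PD-L1 replicate 2, Krt15 alone was 51.7% of the sum, against 15.1% to 23.7% in the other 3 libraries. The keratin partners kept closer ratios than Krt13 over Krt14, of different layers, or Krt5 over Trp63, both basal genes. Krt4 over Krt13 per kilobase was 1.07 and 1.76 in anti-PD-L1, against 1.07 and 0.81 in IgG, and Krt5 over Krt14 was 3.11 and 2.24 in anti-PD-L1, against 3.48 and 2.85 in IgG. Krt13 over Krt14, an upper-layer over a basal keratin, was 6.30 and 0.488 in anti-PD-L1, against 10.2 and 5.003 in IgG. Krt5 over Trp63 was 85.5 and 4.83 in anti-PD-L1, against 82.7 and 62.8 in IgG.

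**Figure D4:**
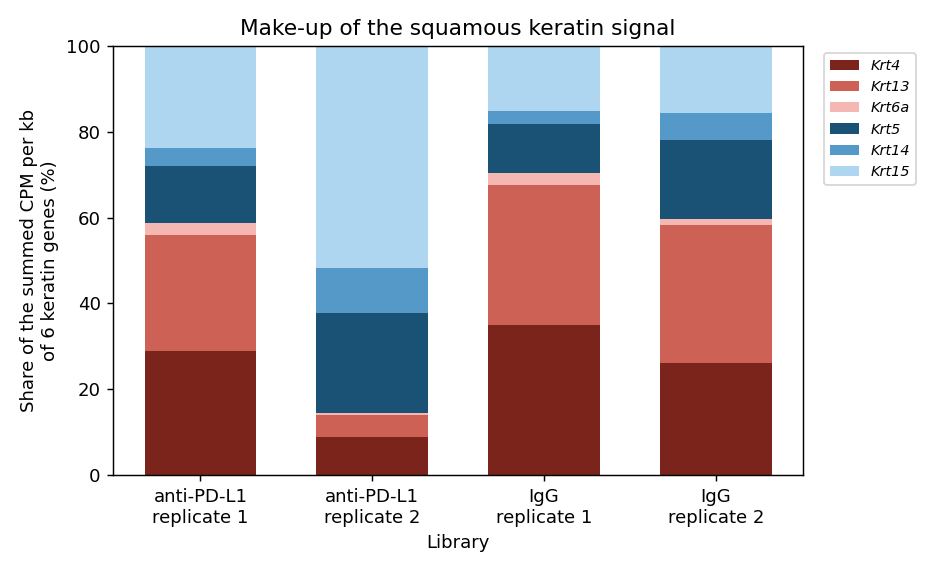
Share of the summed CPM per kilobase of 6 keratin genes taken by each, as stacked bars for the 4 libraries (upper-layer and inducible chains in reds, basal chains in blues). In anti-PD-L1 replicate 2 the basal chains take 85.5% of the sum, against 29.5% to 41.3% in the other libraries.

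Other genes of squamous epithelium followed the same libraries. Of 17 further keratins of stratified epithelia and epidermis, 12 were tested, edgeR and DESeq2 called 0, and the median log2 fold change was −0.80. All 12 were lowest in anti-PD-L1 replicate 2, beside 32.3% of all genes tested. Krt17, a chain of activated and appendage keratinocytes, had 137 and 2.83 CPM in anti-PD-L1, against 181 and 101 CPM in IgG. Krt23 had 87.1 and 5.59 CPM in anti-PD-L1, against 109 and 21.0 CPM in IgG, and Krt78 had 30.0 and 9.03 CPM in anti-PD-L1, against 54.1 and 31.1 CPM in IgG. Groups did not overlap for 4 of the 12, lower in anti-PD-L1, beside the 13.1% of all genes given above.

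The cornified envelope list, with 30 of 38 genes tested, had a median log2 fold change of −1.48 and 0 calls by edgeR or DESeq2. All 30 were lowest in anti-PD-L1 replicate 2, 29 were highest in IgG replicate 1, beside 32.3% and 20.4% of all genes tested, and 7 had groups that did not overlap, lower in anti-PD-L1, beside 13.1%. Tgm3, a transglutaminase that cross-links the envelope, had 94.4 and 3.15 CPM in anti-PD-L1, against 349 and 83.7 CPM in IgG. Calml3 had 316 and 98.1 CPM in anti-PD-L1, against 491 and 137 CPM in IgG, and Ppl, the gene of periplakin, had 154 and 79.0 CPM in anti-PD-L1, against 316 and 87.7 CPM in IgG. Lor, the gene of loricrin, a main protein of the envelope in skin, had both anti-PD-L1 libraries far below both IgG libraries, with 20.3 and 1.73 CPM in anti-PD-L1, against 223 and 126 CPM in IgG. Its log2 fold change of −3.99 ± 1.26 did not pass (edgeR adjusted p = 0.640, DESeq2 adjusted p = 0.132).

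Genes of the junctions were read in 2 lists. The 12 further desmosome genes had a median log2 fold change of −0.97, with 0 called by edgeR and 1 lower by DESeq2 (beside 0.327% of all genes), and 4 of the 12 had non-overlapping groups, lower in anti-PD-L1 (beside 13.1%). The gene that DESeq2 called was Dsc1, a desmocollin of the upper epidermis, with 0.898 and 0.876 CPM in anti-PD-L1, against 2.50 and 2.36 CPM in IgG (log2 fold change −1.45 ± 0.26, edgeR adjusted p = 0.251, DESeq2 adjusted p = 0.00486). Dsp, the gene of the desmosome linker desmoplakin, had 259.7 and 177 CPM in anti-PD-L1, against 602 and 263 CPM in IgG, Jup had 222 and 153 CPM in anti-PD-L1, against 386 and 211 CPM in IgG, and Perp had 189.9 and 38.1 CPM in anti-PD-L1, against 372 and 144 CPM in IgG. The hemidesmosome list of 12 genes, which anchor cells to the basement membrane, had a median of −0.27 and 0 calls by either tool. Groups did not overlap for 6 of the 12, lower in anti-PD-L1, beside 13.1% of all genes. Plec had 386 and 332 CPM in anti-PD-L1, against 482 and 505 CPM in IgG, Dst had 221 and 179 CPM in anti-PD-L1, against 238 and 260.1 CPM in IgG, and Cd151 had 215 and 222 CPM in anti-PD-L1, against 236 and 222 CPM in IgG.

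The 18 squamous transcription factor genes had a median log2 fold change of −0.73, with 0 calls by edgeR or DESeq2. Of these genes 17 were lowest in anti-PD-L1 replicate 2, beside 32.3% of all genes tested. Groups did not overlap for 5 of the 18, lower in anti-PD-L1, beside 13.1% of all genes. Elf3, an ETS factor of many epithelia, had 100.2 and 60.2 CPM in anti-PD-L1, against 119 and 66.8 CPM in IgG, and Ehf had 95.05 and 40.1 CPM in anti-PD-L1, against 86.8 and 74.0 CPM in IgG.

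Markers that separate kinds of squamous tissue were read beside the members. Of 11 markers of oesophageal and oral epithelium, 10 were tested and summed to 3779 and 161 CPM in anti-PD-L1, against 9485 and 2223 CPM in IgG. The list holds Krt4 and Krt13 themselves, which gave 3241 and 13.2 CPM in anti-PD-L1, against 8565 and 1951 CPM in IgG. Except in anti-PD-L1 replicate 2, the sum was mostly a repeat of these members. Of the 10, 9 were lowest in anti-PD-L1 replicate 2, beside 32.3% of all genes tested. For 3 of the 10, groups did not overlap, lower in anti-PD-L1, beside 13.1%. Mal was lowest in IgG replicate 2 instead, with 356 and 117 CPM in anti-PD-L1, against 522 and 102 CPM in IgG. Of 10 epidermal markers, 7 were tested and summed to 127 and 27.6 CPM in anti-PD-L1, against 532 and 238 CPM in IgG. All 7 were lowest in anti-PD-L1 replicate 2, beside 32.3% of all genes tested. Of the 7, 5 had non-overlapping groups, lower in anti-PD-L1, Lor among them, beside 13.1% of all genes. Asprv1, the gene of a protease of the skin, had 59.3 and 0.617 CPM in anti-PD-L1, against 203 and 32.9 CPM in IgG, so its groups overlapped. Krtdap, a further epidermal marker, had 14.4 and 0.555 CPM in anti-PD-L1, against 57.2 and 40.8 CPM in IgG, and its groups did not overlap. Krt1 and Krt10, the paired keratins of upper epidermis, were low in all libraries and differed less between them than Lor, Asprv1 and Krtdap. Krt1 had 8.14 and 6.75 CPM in anti-PD-L1, against 9.18 and 10.5 CPM in IgG, and Krt10 had 11.3 and 6.17 CPM in anti-PD-L1, against 21.0 and 11.0 CPM in IgG. Krt4 and Krt13 were among the 81 highest genes per kilobase in 3 libraries, as the label of squamous epithelium implies, while in anti-PD-L1 replicate 2 Krt13 was at 4.32 CPM and Cnfn, a cornification gene named here after its values were seen, at 0.0494 CPM, or 4 counts.

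Markers of other tissues followed other orders of the libraries. By summed level, anti-PD-L1 replicate 2 was lowest for skeletal muscle, smooth muscle and ciliated cells. It was not lowest for the airway, parathyroid, follicle, C cell and cartilage lists. The 12 airway and gland genes summed to 28822 and 9155 CPM in anti-PD-L1, against 4780 and 19165 CPM in IgG, which puts IgG replicate 1 lowest where it was highest for the squamous genes. The 12 skeletal muscle genes summed to 70788 and 28548 CPM in anti-PD-L1, against 46662 and 62040 CPM in IgG, with anti-PD-L1 replicate 2 lowest. Of these 12 genes, 11 were lowest in that library, beside 32.3% of all genes tested. The 4 parathyroid genes summed to 4565 and 3238 CPM in anti-PD-L1, against 4515 and 1591 CPM in IgG. The 13 thyroid follicle genes summed to 46185 and 167317 CPM in anti-PD-L1, against 155856 and 150399 CPM in IgG, a sum made up mostly of Tg, and 10 of the 13 were highest in anti-PD-L1 replicate 2, where the squamous genes were lowest. The 8 smooth muscle and myoepithelial genes summed to 2609 and 1187 CPM in anti-PD-L1, against 1725 and 2225 CPM in IgG. Most of that sum was Des (2275 and 784 CPM, against 1377 and 1814 CPM), and 2 of the 8 were lowest in anti-PD-L1 replicate 2. The 8 genes of ciliated cells summed to 245 and 127 CPM in anti-PD-L1, against 237 and 307 CPM in IgG. Tppp3 was the largest part (164 and 50.3 CPM, against 188 and 152 CPM), and 1 of the 8 was lowest in anti-PD-L1 replicate 2. The 5 C cell genes summed to 1777 and 1346 CPM in anti-PD-L1, against 1951 and 1332 CPM in IgG, and the 7 cartilage genes to 41.5 and 42.4 CPM in anti-PD-L1, against 116 and 149.6 CPM in IgG. DESeq2 called 5 of the 7 cartilage genes lower in anti-PD-L1, beside 0.327% of all genes, and 0 genes of the airway, muscle, parathyroid, follicle, ciliated and C cell lists, while edgeR called 0 in each of these and in cartilage.

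The 7 tested genes of thymic epithelium, which also uses Krt5, Krt14 and Trp63, summed to 25.2 and 43.0 CPM in anti-PD-L1, against 29.9 and 26.5 CPM in IgG. Ly75 had 11.4 and 27.4 CPM in anti-PD-L1, against 13.1 and 16.2 CPM in IgG, and Prss16, the gene of a thymic protease, had 2.95 and 5.73 CPM in anti-PD-L1, against 6.64 and 2.82 CPM in IgG. The defining factor Foxn1 was at 3.59 and 3.30 CPM in anti-PD-L1, against 4.35 and 3.02 CPM in IgG. The simple epithelial keratins, which follicle cells and glands express, summed to 704 and 373 CPM in anti-PD-L1, against 699.6 and 419 CPM in IgG. Among them Krt8 had 220.4 and 164 CPM in anti-PD-L1, against 183 and 160.0 CPM in IgG, and Krt19 had 181 and 58.7 CPM in anti-PD-L1, against 225 and 104 CPM in IgG. No gene of the marker lists that was tested was at 0 counts in any library. The deposited counts list no cell at 0 and only genes that reach 100 counts in a library. The absence of 0 therefore does not show which tissues were present. The part of these tissues in the squamous values was not tested.

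**Figure D5:**
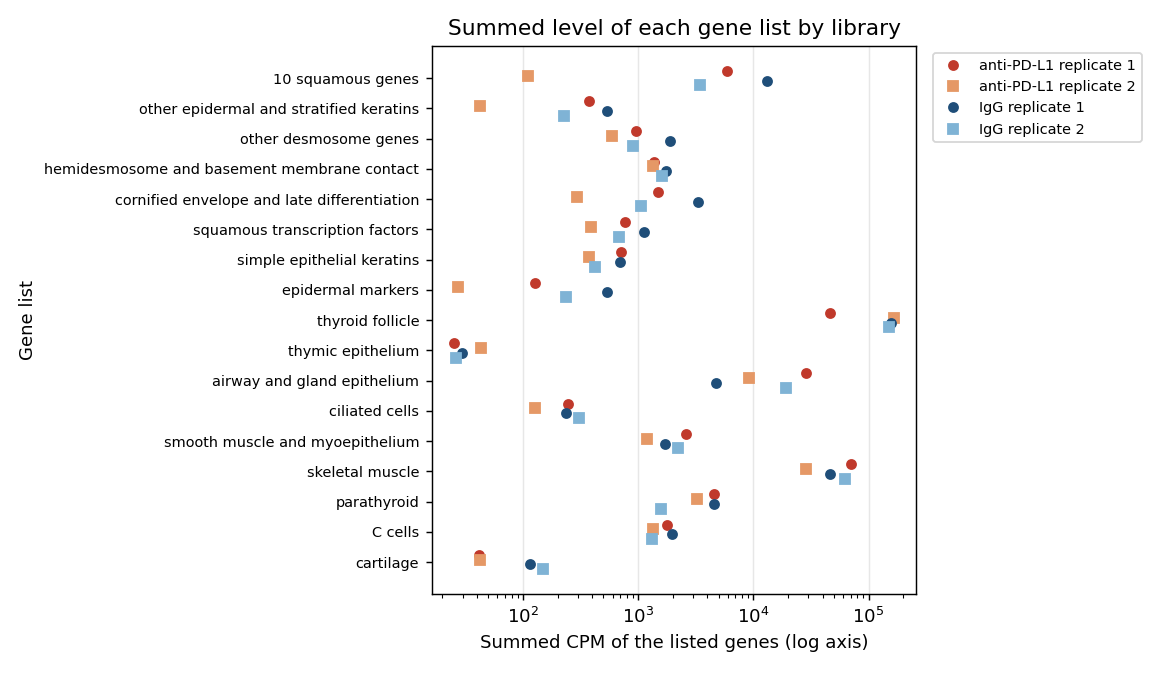
Summed TMM-normalised CPM of each gene list on a log axis, with 1 point per library. The 10 squamous genes spread from 111 to 13026 CPM, the thyroid follicle list from 46185 to 167317 CPM, and the airway and gland list has its lowest point in IgG replicate 1.

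The genes outside the 10 whose levels over the 4 libraries were most like the mean of the members were Igfbp2, Sprr2a3, Tmprss11a, C4bp-ps1, Pkp1, Pinlyp, Tgm3, Sptssb, 2610528A11Rik and Ly6g6c. The measure was the root mean square difference in centred log2 CPM over 4 libraries, which was 0.089 for Igfbp2 and 0.36 for Ly6g6c, beside a median of 2.58 over 16062 genes of at least 1 CPM on average. Igfbp2, an insulin-like growth factor binding protein gene, had 65.4 and 1.51 CPM in anti-PD-L1, against 146 and 46.4 CPM in IgG. Pkp1, the gene of a desmosomal plakophilin, had 47.0 and 1.60 CPM in anti-PD-L1, against 137 and 36.9 CPM in IgG. Tmprss11a, a transmembrane serine protease gene, had 37.8 and 0.926 CPM in anti-PD-L1, against 97.0 and 34.9 CPM in IgG. Among the members, Krt5 was closest to that mean pattern (0.29) and Trp63 farthest from it (1.93).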

How the data were processed

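Poly(A)-selected, paired-end libraries (150 bases per end) of mouse thyroid were sequenced, per the labels' protocols. The authors deposited expected counts by gene symbol, in 1 table with no normalization. BWA and mm10 are named in the submitters' processing notes with no role or version, and the sources used here state no counting program, annotation or strand setting. Of the genes' maximum counts the smallest was 100, so scarcer genes were not analysed here. No table cell was listed at 0, and 13 blank cells in 12 genes were read as 0.

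Counts were rounded to whole numbers and tested with edgeR 4.0.16 in R 4.3.3 (filterByExpr, 16217 genes, TMM factors, robust quasi-likelihood F test on group, two-sided, Benjamini-Hochberg over all genes tested, threshold 0.05). Each SE was recovered as the size of the log2 fold change over the root of its F statistic. An exact permutation test of 2 against 2 libraries cannot pass this threshold. DESeq2 1.42.0, limma 3.58.1 voom, other scalings, filters, a replicate block, left-out libraries and a threshold of 0.10 were alternatives. At these depths 3 counts correspond to 0.0377 to 0.0397 CPM, a floor for counting error only. Exon lengths and coordinates came from GENCODE M21 (GRCm38), in which 15871 symbols were found once. The steps were tested on simulated data.

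Named genes were every member, up to 3 genes of each pathway list and up to 2 of each cell type list by mean CPM, and the 10 genes of most similar pattern. Krt1, Krt10, Krtdap, Foxn1, Krt6b, Dsc1, Cnfn and Mal fall outside this rule and were chosen after their values were seen. For several lists of other tissues only sums are printed. The members and lists were chosen with earlier results of these data known. The values of 1 gene that this rule names are not reported here.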

Additional observations from a re-analysis of the deposited data

How the results depend on the processing

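edgeR called 0 members under every scaling, filter, left-out library and threshold tried with it. limma voom, run at the main settings, also called 0, and all 10 log2 fold changes stayed negative under each scaling and filter. Over all genes, the count of 0 became 528 with DESeq2 and 15 at an adjusted p under 0.10. Leaving out each library in turn, edgeR called 0 genes each time. DESeq2 with libraries left out, added after seeing the data, called 1139 genes without anti-PD-L1 replicate 1, 785 without anti-PD-L1 replicate 2, 227 without IgG replicate 1 and 515 without IgG replicate 2, and 10, 0, 0 and 0 members in that order. The members' median log2 fold change then ranged from −5.59 to −0.53 with edgeR and from −5.59 to −0.52 with DESeq2. That of Krt6a ranged from −8.97 to 0.74 with edgeR (DESeq2 −8.98 to 0.75), that of Krt15 from −4.67 to 0.40 (DESeq2 −4.67 to 0.41, and 0.17 without anti-PD-L1 replicate 2) and that of Sprr1a from −8.46 to 1.07 (DESeq2 −8.47 to 1.08). The median was −2.96 with limma voom and −2.94 with the replicate block, against −1.51 with edgeR. Krt4 differed between group means by −4.07 on log2 CPM, the scale that limma voom fits, beside −3.98 with limma voom and −1.66 with edgeR. The part of this scale in the medians was not tested. The replicate block called 0 genes. Replicate numbers were not taken as pairs, since only 2 exist and the differences between replicates 1 and 2 correlated across genes with r = 0.0998 between the groups, although over the 10 members r was 0.746 and replicate 1 was above replicate 2 in both groups for all 10. Low counts limit the precision for Krt6a (39) and Sprr1a (23) in anti-PD-L1 replicate 2.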
